A study of Homo sapiens with 12 samples.

Results

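The genes described here encode focal adhesion kinase (PTK2), the SRC family kinases SRC, FYN, YES1 and LYN, and the focal adhesion proteins paxillin (PXN), p130Cas (BCAR1), talin 1 (TLN1), vinculin (VCL) and zyxin (ZYX). They were taken by gene symbol from a list drawn up with earlier results of these data known, and are 10 of the 56140 symbols in each library. All 10 passed the filter on low values and are among the 11944 genes tested. RNA sequencing was done on 143B, an osteosarcoma line of human origin that the labels call wild type. Cells received ceritinib at 1.0 µM, crenolanib at 1.0 µM, the combination of both drugs at 1.0 µM each, or DMSO, the solvent control. Every treatment lasted 48 h, and each of the 4 groups had 3 libraries labelled as biological replicates, so all statements concern 1 cell line at 1 dose and 1 time. Ceritinib is an inhibitor of the receptor tyrosine kinase ALK that also binds other kinases, focal adhesion kinase among them, and crenolanib inhibits the PDGF receptors and FLT3. The series title names a drug combination and oncogenic signalling induced by drugs, and the question here is which of these transcripts changed with either drug or with both.

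Focal adhesions are the sites where integrins, the receptors for the extracellular matrix, are coupled to actin filaments inside the cell. When integrins are engaged, focal adhesion kinase phosphorylates itself and so creates a docking site for a SRC family kinase, and the paired kinases phosphorylate paxillin and p130Cas, which recruit further signalling proteins. Talin binds and activates integrins, vinculin reinforces the link between talin and actin, and zyxin gathers at adhesions and stress fibres under tension. In osteosarcoma these proteins are studied for their roles in migration and in survival away from a substrate. The data are transcript levels, so neither phosphorylation nor kinase activity was measured.

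Transcription of VCL, TLN1, ZYX and other adhesion genes is known to respond to serum response factor, which binds the CArG box, and many adhesion genes respond to the TEAD partners of YAP. Promoter windows from 250 bases before to 50 bases after the start were given by RefSeq on GRCh38.p14 for 7 of the 10 genes, FYN, YES1, PXN, BCAR1, TLN1, VCL and ZYX. Of these, 3 are shown 5′ to 3′ because they belong to genes whose values separate the groups in different ways: FYN was lower with every treatment, VCL was lower with the combination alone, and ZYX was higher with every treatment as deposited. Capitals mark the 6 bases GGAATG, the TEAD motif. The FYN window lies on the minus strand at chr6:111873403-111873702, the VCL window on the plus strand at chr10:73997866-73998165, and the ZYX window on the plus strand at chr7:143381095-143381394.
FYN: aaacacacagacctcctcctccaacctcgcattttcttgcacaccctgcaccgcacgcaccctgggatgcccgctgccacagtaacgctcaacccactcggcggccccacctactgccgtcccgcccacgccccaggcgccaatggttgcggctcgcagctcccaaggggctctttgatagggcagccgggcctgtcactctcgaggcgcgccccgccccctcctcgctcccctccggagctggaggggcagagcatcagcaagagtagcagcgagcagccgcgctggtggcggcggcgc
VCL: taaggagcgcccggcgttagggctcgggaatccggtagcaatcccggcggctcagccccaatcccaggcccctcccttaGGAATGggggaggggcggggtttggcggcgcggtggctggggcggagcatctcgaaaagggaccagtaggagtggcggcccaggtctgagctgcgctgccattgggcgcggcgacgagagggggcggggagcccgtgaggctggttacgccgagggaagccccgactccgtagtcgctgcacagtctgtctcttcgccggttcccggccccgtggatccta
ZYX: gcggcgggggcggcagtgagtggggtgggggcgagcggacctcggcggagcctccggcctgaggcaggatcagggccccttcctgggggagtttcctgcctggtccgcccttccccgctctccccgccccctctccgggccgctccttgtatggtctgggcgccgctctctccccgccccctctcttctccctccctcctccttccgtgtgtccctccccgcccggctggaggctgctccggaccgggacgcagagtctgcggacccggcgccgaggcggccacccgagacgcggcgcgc

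GGAATG, searched on both strands, was found in the VCL window and in none of the other 6, against 14.05% of all 27305 promoters in the table and 10.4% of the 8634 that belong to tested genes. The CArG box was found in none of the 7 windows, and in 1.29% of all promoters. No match says only that the letters are not in this window of 300 bases. GC content was 69% in the FYN window, 69.3% in the VCL window and 76% in the ZYX window, against a median of 66% over promoters of tested genes.

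The genes differ in transcript length and GC content, which matters for the combination libraries. Coordinates are on hg38 and identifiers from GENCODE 29. Among the kinases, PTK2 (ENSG00000169398.19) spans 8:140657900-141002220 on the minus strand and its longest transcript has 44.6% GC. SRC (ENSG00000197122.11) spans 20:37344685-37406050 on the plus strand, with 59.3% GC. FYN (ENSG00000010810.17) spans 6:111660330-111873450 on the minus strand, with 48.4% GC. YES1 (ENSG00000176105.13) spans 18:721588-812546 on the minus strand, and its 37.7% GC is at percentile 6.74 of the tested genes. LYN (ENSG00000254087.7) spans 8:55879813-56014168 on the plus strand, with 45.7% GC. Among the adaptors, PXN (ENSG00000089159.16) spans 12:120210440-120265770 on the minus strand with 60.2% GC, and BCAR1 (ENSG00000050820.16) spans 16:75228187-75268053 on the minus strand with 63.1% GC. TLN1 (ENSG00000137076.20) spans 9:35696948-35732395 on the minus strand and has a long transcript of 8823 bases with 57.7% GC. VCL (ENSG00000035403.17) spans 10:73995193-74121363 on the plus strand, with 45.1% GC. ZYX (ENSG00000159840.15) spans 7:143381080-143391110 on the plus strand, has a short transcript of 2493 bases, and its 64.9% GC is at percentile 96.8. YES1, PTK2, VCL and LYN thus lie below the median GC of the tested genes, FYN is near it at percentile 49.9, and the other 5 lie above it.

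Values are FPKM, fragments per kilobase of transcript scaled to the mapped fragments of the library, as the authors deposited them. Estimated depth was 23.4 to 28.4 M fragments with ceritinib, 22.5 to 24.4 with crenolanib, 19.8 to 22.5 with the combination and 24.1 to 26.9 with DMSO. The combination libraries stood apart: across the tested genes their correlation with DMSO libraries was 0.884 to 0.898, against 0.985 to 0.987 for ceritinib with DMSO, 0.990 to 0.991 for crenolanib with DMSO and 0.995 to 0.996 within groups. Between 10284 and 10358 genes reached 1 FPKM in the combination libraries, against 11375 to 11420 in DMSO libraries. Mitochondrially encoded genes took 28.8 to 29.8% of all FPKM with ceritinib, 25.6 to 26.3% with crenolanib, 19.1 to 21.7% with the combination and 22.9 to 25.2% with DMSO, and their part in the results below was not tested. Splines of GC content and transcript length accounted for 46.9% of the variance, over all genes, in the combination change, against 1.03% for ceritinib and 1.996% for crenolanib. With the combination, the change at the median of all tested genes was -0.16 on the log2 scale as deposited, -0.34 on a TPM scale, 0.06 with median-of-ratios scaling and -0.01 after correction for GC and length. Combination values are therefore given as deposited and after that correction, which would also remove a trend with GC or length that the drugs themselves produced. Of the 8 mesenchymal and osteosarcoma markers, 3 to 4 reached 1 FPKM in each group, led by VIM and SPARC, while COL1A2 and ALPL were near 0 and THY1 was listed at 0. None of 7 haematopoietic and thymic markers and none of 3 endothelial ones reached 1 FPKM in any group. The summed FPKM of the 5 epithelial markers, nearly all KRT8 and KRT18, was 343 to 353 with ceritinib, 342 to 362 with crenolanib, 555 to 569 with the combination and 371 to 401 with DMSO, with CDH1 near 0, and its part in the results below was not tested.

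In FPKM, a level per length, the order of the 10 genes in DMSO was PXN, VCL, TLN1, ZYX, YES1, PTK2, BCAR1, SRC, FYN and LYN. Neighbours in this order did not overlap between libraries of the group. The same order held with ceritinib and with crenolanib, except that PXN and VCL overlapped in the crenolanib libraries. In the combination libraries the order was TLN1, ZYX, PXN, VCL, BCAR1, SRC, YES1, PTK2, FYN and LYN, again without overlap between neighbours. As deposited, YES1 and PTK2 thus stood above BCAR1 and SRC with either drug alone and with DMSO, and below both with the combination. After the GC and length correction YES1 was again above SRC in the combination. They then made up 42.3% and 30.2% of the summed FPKM of SRC, FYN, YES1 and LYN. The rest of the order was not examined after correction. LYN and FYN rest on the fewest fragments, an estimated 236 to 673 and 229 to 648 per library, and TLN1 on the most, 7805 to 12975. The median coefficient of variation within groups was lowest for PTK2, 1.55%, and highest for BCAR1, 6.85%.

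**Figure D1:**
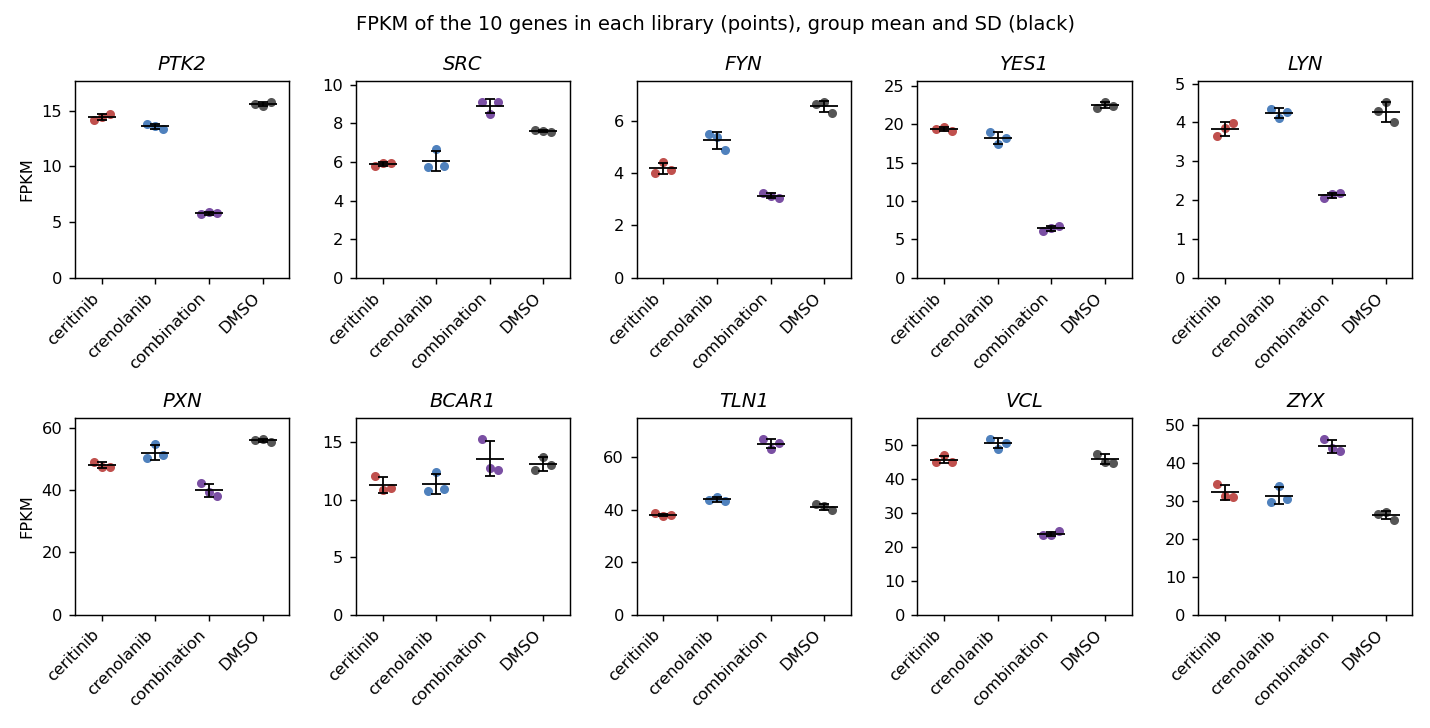
FPKM of each of the 10 genes (vertical axis, linear from 0, its own scale in each panel) in the ceritinib, crenolanib, combination and DMSO libraries. Points are single libraries, long bars are means and error bars are SD (n = 3), and the combination points stand clear of all other groups for every gene but BCAR1. How many of all tested genes do so was not counted, so this is not read as particular to these genes.

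Ceritinib lowered transcripts of most of this set. FYN, a SRC family kinase that signals at adhesions, changed most, and SRC, PXN, BCAR1, YES1, LYN, TLN1 and PTK2 fell by less, while ZYX rose. Of the 10 genes, 8 fell and 1 rose at an adjusted p below 0.05, against a background in which 16.3% of all tested genes fell and 20.3% rose. The median change of the 10 was -0.16, against 0.01 for all tested genes. In bulk RNA, fewer cells of a kind and less RNA per cell cannot be told apart.

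FYN was at 4.01, 4.42 and 4.12 FPKM in ceritinib libraries, against 6.64, 6.71 and 6.30 in DMSO libraries. The groups did not overlap, and the mean fell by 36.2%. The change was -0.54 (SE 0.0467, adjusted p = 3.42e-06), which placed FYN in the top 2.82% of tested genes by size of change. SRC, the founding member of the family, had 5.78, 5.96 and 5.92 FPKM with ceritinib, against 7.65, 7.63 and 7.54 with DMSO, a fall of 0.32 on the log2 scale (SE 0.0476, adjusted p = 0.000271). All 3 ceritinib libraries were below all 3 DMSO libraries here too. YES1, the SRC family kinase with the highest FPKM in these cells, had 19.4, 19.6 and 19.1 FPKM with ceritinib, against 22.1, 22.9 and 22.4 with DMSO. Its change was -0.20 (SE 0.0375, adjusted p = 0.00125), again without overlap.

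PTK2 encodes the focal adhesion kinase that ceritinib binds. It had 14.2, 14.4 and 14.7 FPKM with ceritinib, against 15.6, 15.4 and 15.8 with DMSO. Its change was small, -0.10 (SE 0.0277, adjusted p = 0.0112), or 7.45% less of the mean, and 51.4% of tested genes changed by as much or more. LYN, a SRC family kinase best known from blood cells, had 3.65, 3.85 and 3.99 FPKM with ceritinib, against 4.31, 4.52 and 4.001 with DMSO. These ranges nearly touched, and the change of -0.13 (SE 0.0453) passed with an adjusted p of 0.0458. That call was kept in only 3 of the 12 fits that left out a library, those without ceritinib replicate 3, combination replicate 1 or DMSO replicate 3, with adjusted p between 0.0506 and 0.171 in the other 9. It was also lost with a pseudocount of 0.1, with a looser filter or none, and in fits of the compared groups only (adjusted p = 0.0519 to 0.0787). After the GC and length correction LYN changed by -0.14 (adjusted p = 0.0157).

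Among the adaptors, PXN, the scaffold on which many adhesion proteins assemble, had 49.2, 47.4 and 47.4 FPKM with ceritinib, against 56.1, 56.5 and 55.6 with DMSO. The change was -0.22 (SE 0.0397, adjusted p = 0.00113). BCAR1, the SRC substrate p130Cas, had 12.02, 10.8 and 11.004 FPKM with ceritinib, against 12.6, 13.7 and 13.0 with DMSO. Its libraries did not overlap between groups, but its change of -0.20 (SE 0.0725, adjusted p = 0.0477) was lost in 7 of the 12 fits that left out a library, those without ceritinib replicate 2 or 3, crenolanib replicate 1 or 3, or any DMSO replicate, with adjusted p of 0.0508 to 0.147. It was lost as well with a looser filter (adjusted p = 0.0699) or none (0.137). Corrected for GC and length it was -0.22 (adjusted p = 0.00219).

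The linkers to actin did not move together. TLN1 had 38.6, 37.8 and 37.9 FPKM with ceritinib, against 42.2, 41.4 and 39.9 with DMSO, a change of -0.11 (SE 0.0297, adjusted p = 0.0139) that did not pass without DMSO replicate 1 (adjusted p = 0.0599). VCL had 45.1, 47.1 and 45.1 FPKM with ceritinib, against 47.5, 45.2 and 44.8 with DMSO. The groups overlapped, and the 95% interval of the difference ran from -0.08 to 0.07 on the log2 scale (adjusted p = 0.969). ZYX was the gene that rose, with 34.3, 31.1 and 31.0 FPKM with ceritinib, against 26.5, 27.0 and 25.0 with DMSO. Its change was 0.29 (SE 0.0536, adjusted p = 0.00136), or 0.24 after correction, and all 3 ceritinib libraries were above all 3 DMSO libraries.

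Crenolanib lowered PTK2, SRC, FYN and YES1 and raised VCL, ZYX and, by a small amount, TLN1. That made 4 genes that fell and 3 that rose, against a background of 13% of all tested genes in each direction. The median change of the 10 was -0.14, against -0.00 for all tested genes. After the GC and length correction 6 fell and 2 rose, against a background of 13.7% lower and 15.6% higher, PXN and BCAR1 joining those that fell and TLN1 no longer passing.

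YES1 had 19.0, 17.4 and 18.2 FPKM with crenolanib, against 22.1, 22.9 and 22.4 with DMSO. Its change of -0.29 (SE 0.0375, adjusted p = 0.000207) rested on groups without overlap. SRC had 5.75, 6.67 and 5.79 FPKM with crenolanib, with replicate 2 above the others, against 7.65, 7.63 and 7.54 with DMSO, a change of -0.29 (SE 0.0476, adjusted p = 0.00110). FYN had 5.49, 5.37 and 4.87 FPKM with crenolanib, against 6.64, 6.71 and 6.30 with DMSO, a change of -0.27 (SE 0.0467, adjusted p = 0.00126). PTK2 had 13.8, 13.6 and 13.4 FPKM with crenolanib, against 15.6, 15.4 and 15.8 with DMSO, a change of -0.19 (SE 0.0277, adjusted p = 0.000533). In each of these 3 genes every crenolanib library was below every DMSO library. LYN was the exception among the kinases, at 4.34, 4.11 and 4.28 FPKM with crenolanib, against 4.31, 4.52 and 4.001 with DMSO. The groups overlapped and the 95% interval of the LYN difference was -0.11 to 0.09 (adjusted p = 0.916).

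Paxillin transcripts (PXN) were at 50.3, 54.8 and 51.3 FPKM with crenolanib, against 56.1, 56.5 and 55.6 with DMSO. All were below DMSO, but the change of -0.10 (SE 0.0397) did not pass as deposited (adjusted p = 0.0749). BCAR1 had 10.8, 12.4 and 10.96 FPKM with crenolanib, against 12.6, 13.7 and 13.0 with DMSO, and its change of -0.19 (SE 0.0725) did not pass either (adjusted p = 0.0750). With the correction the values were -0.13 for PXN (adjusted p = 0.000712) and -0.21 for BCAR1 (adjusted p = 0.00364). As deposited, both passed without crenolanib replicate 2 (adjusted p = 0.0293 for PXN and 0.0379 for BCAR1) or without combination replicate 1 (0.0339 for PXN and 0.0260 for BCAR1). They also passed with quantile normalization (0.0379 for PXN and 0.0318 for BCAR1) and without all combination libraries (0.0376 for PXN and 0.0337 for BCAR1). PXN passed on the TPM scale (0.0420), and BCAR1 in a fit of the compared groups only (0.0418). Each gene passed in 2 of the 12 fits that left out a library and in 5 of the 12 other alternatives.

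Among the actin linkers, ZYX had 29.6, 33.8 and 30.5 FPKM with crenolanib, against 26.5, 27.0 and 25.0 with DMSO, a rise of 0.25 (SE 0.0536, adjusted p = 0.00535). VCL had 51.9, 48.9 and 50.7 FPKM with crenolanib, against 47.5, 45.2 and 44.8 with DMSO, a rise of 0.14 (SE 0.0335, adjusted p = 0.0105). TLN1 had 43.7, 45.01 and 43.2 FPKM with crenolanib, against 42.2, 41.4 and 39.9 with DMSO, a rise of 0.09 (SE 0.0297, adjusted p = 0.0366). All 3 genes were higher in every crenolanib library than in every DMSO library. The TLN1 call was lost without ceritinib replicate 3, crenolanib replicate 1 or 2, or DMSO replicate 2 or 3 (adjusted p = 0.0517 to 0.138), and after correction (0.06, adjusted p = 0.0571). It was also lost on the TPM scale (adjusted p = 0.124), with quantile normalization (0.0654), with no filter (0.0632) and in a fit of the compared groups only (0.0609).

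Set directly against each other, ceritinib gave lower values than crenolanib for FYN, TLN1, VCL and PXN and a slightly higher value for PTK2. These are 4 lower and 1 higher of the 10, against a background of 15.4% lower and 19.4% higher. The FYN difference was -0.27 (SE 0.0467, adjusted p = 0.000904), with every ceritinib library below every crenolanib library. The TLN1 difference was -0.20 (SE 0.0297, adjusted p = 0.000283) and the VCL difference was -0.14 (SE 0.0335, adjusted p = 0.00709), both without overlap. The PXN difference of -0.12 (adjusted p = 0.0412) was lost without ceritinib replicate 2 or 3, crenolanib replicate 2 or 3, or any DMSO replicate (adjusted p = 0.0535 to 0.153), and with a looser filter (0.0557) or none (0.0982). The PTK2 difference of 0.08 (adjusted p = 0.0400) was lost without any of the 9 ceritinib, crenolanib and DMSO libraries (adjusted p = 0.0512 to 0.135), with each of the 3 other scalings (0.0987 to 0.728), with robust variances (0.0521), with the replicate block (0.0695) and in a fit of the compared groups only (0.0698). For the other 5 no difference passed: the 95% intervals on the log2 scale were -0.14 to 0.07 for SRC, 0.00268 to 0.17 for YES1, -0.22 to -0.02 for LYN, -0.17 to 0.15 for BCAR1 and -0.08 to 0.16 for ZYX. The adjusted p was 0.102 for YES1 and 0.0615 for LYN, and after correction YES1 passed at 0.10 (adjusted p = 0.00904) and LYN at -0.12 (adjusted p = 0.0345). LYN also passed as deposited without DMSO replicate 3 (adjusted p = 0.0493), and YES1 without crenolanib replicate 1 (adjusted p = 0.0445). With each of the 3 other scalings LYN passed too. It was at -0.19 on the TPM scale (adjusted p = 0.0234), -0.17 with median-of-ratios scaling (0.00915) and -0.14 with quantile normalization (0.0278).

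**Figure D2:**
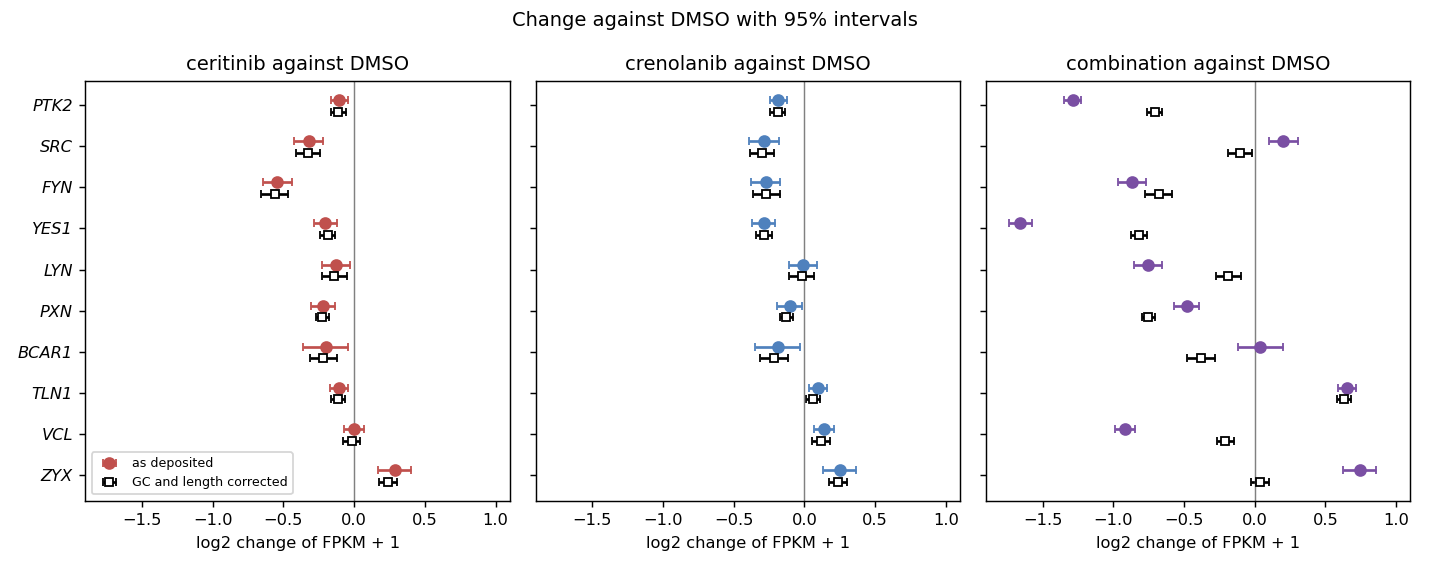
log2 change of FPKM + 1 of each gene against DMSO (horizontal axis) for ceritinib, crenolanib and the combination, with 95% intervals (n = 3 libraries per group). Filled circles are values as deposited and open squares are values corrected for GC and length, which lie close together for each drug alone and apart for the combination, TLN1 excepted.

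With the combination, the kinases PTK2, YES1, FYN and LYN and the adhesion proteins VCL and PXN fell, and TLN1 and ZYX rose, with a small rise of SRC. Of the 10 genes 6 fell and 3 rose as deposited, which is near the background of 50.9% of all tested genes lower and 36.8% higher. After correction 8 fell and 1, TLN1, rose, against a background of 40.8% lower and 39.5% higher. The median change of the 10 was -0.62 as deposited and -0.29 corrected, against medians over all genes of -0.16 and -0.01.

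YES1 had 6.11, 6.54 and 6.68 FPKM with the combination, against 22.1, 22.9 and 22.4 with DMSO. The mean fell by 71.3%, and the change was -1.66 (SE 0.0375, adjusted p = 1.13e-12), in the top 2.73% of tested genes by size. Corrected for GC and length it was -0.82 (adjusted p = 2.85e-11). PTK2 had 5.68, 5.93 and 5.78 FPKM with the combination, against 15.6, 15.4 and 15.8 with DMSO, and its mean fell by 62.8%. The change was -1.29 (SE 0.0277, adjusted p = 8.07e-13) as deposited and -0.71 (adjusted p = 5.85e-11) corrected. Focal adhesion kinase transcripts were thus lower in every combination library on both scales.

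FYN had 3.23, 3.13 and 3.05 FPKM with the combination, against 6.64, 6.71 and 6.30 with DMSO. The change was -0.87 (SE 0.0467, adjusted p = 1.67e-09), or -0.68 corrected (adjusted p = 1.82e-08), so FYN kept most of its change. LYN had 2.05, 2.15 and 2.17 FPKM with the combination, against 4.31, 4.52 and 4.001 with DMSO. Its change of -0.76 (SE 0.0453, adjusted p = 4.78e-09) shrank to -0.19 (adjusted p = 0.000911) after correction. SRC had 9.10, 8.49 and 9.10 FPKM with the combination, against 7.65, 7.63 and 7.54 with DMSO, and was the kinase that rose as deposited, by 0.20 (SE 0.0476, adjusted p = 0.00156). The direction did not hold across scales: it was -0.10 after correction (adjusted p = 0.0247), and on the TPM scale the rise did not pass (adjusted p = 0.25).

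PXN had 42.3, 39.3 and 38.1 FPKM with the combination, against 56.1, 56.5 and 55.6 with DMSO. It fell by 0.48 on the log2 scale (SE 0.0397, adjusted p = 1.16e-07) and by more, 0.75, after correction (adjusted p = 1.13e-11). BCAR1 had 15.3, 12.8 and 12.6 FPKM with the combination, against 12.6, 13.7 and 13.0 with DMSO. The groups overlapped, combination replicate 1 lay above the rest, and the 95% interval of the difference was -0.12 to 0.20 (adjusted p = 0.606). After correction BCAR1 was lower by 0.38 (change -0.38, adjusted p = 5.53e-06), and with median-of-ratios scaling it was higher, at 0.31 (adjusted p = 0.00168), so no direction is given for it.

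TLN1 had 67.1, 63.3 and 65.4 FPKM with the combination, against 42.2, 41.4 and 39.9 with DMSO. This was a rise of 58.7% in the mean, or 0.65 on the log2 scale (SE 0.0297, adjusted p = 3.31e-10), and it was 0.63 after correction (adjusted p = 7.91e-11), the only member that rose on both scales. VCL, whose protein binds talin, went the other way, with 23.4, 23.3 and 24.5 FPKM with the combination, against 47.5, 45.2 and 44.8 with DMSO. The change was -0.92 (SE 0.0335, adjusted p = 4.53e-11) as deposited and -0.21 (adjusted p = 1.80e-05) corrected. ZYX had 46.2, 43.8 and 43.0 FPKM with the combination, against 26.5, 27.0 and 25.0 with DMSO, the largest rise of the 10 as deposited at 0.74 (SE 0.0536, adjusted p = 3.12e-08). After correction the ZYX value was 0.04, with an interval of -0.02 to 0.10 (adjusted p = 0.225).

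Leaving out any of the 12 libraries changed no call among the 10 genes in the combination against DMSO. Exons of VCL share 1109 bases, 11.1% of its own, with AP3M1 on the opposite strand, whose mean was 4.61 ± 0.540 FPKM with the combination and 15.1 ± 0.513 with DMSO (SD, n = 3 each). TLN1 shares 61 exon bases, 0.605%, with CREB3 on the opposite strand, at 85.3 ± 1.98 FPKM with the combination and 11.8 ± 0.857 with DMSO (SD, n = 3 each). PXN shares 918 exon bases, 12.3%, with the antisense gene PXN-AS1, which averaged 1.28 FPKM with the combination and 0.867 with DMSO. BCAR1 shares 788 exon bases, 8.59%, with AC009078.3 on its own strand, below 1 FPKM in all groups. The libraries are strand-specific per the labels, but whether the counting used strand is not given in the sources used here, so reads of such pairs could be shared.

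Over the 10 genes, the deposited combination change ordered with GC content at a Spearman rho of 0.879, and at 0.455 after correction. For ceritinib it was -0.02 and for crenolanib 0.30, as deposited. These describe 10 genes that share libraries and depth. YES1, lowest in GC, was the lowest of the 10 in the combination, and ZYX, highest in GC, was the highest.

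**Figure D3:**
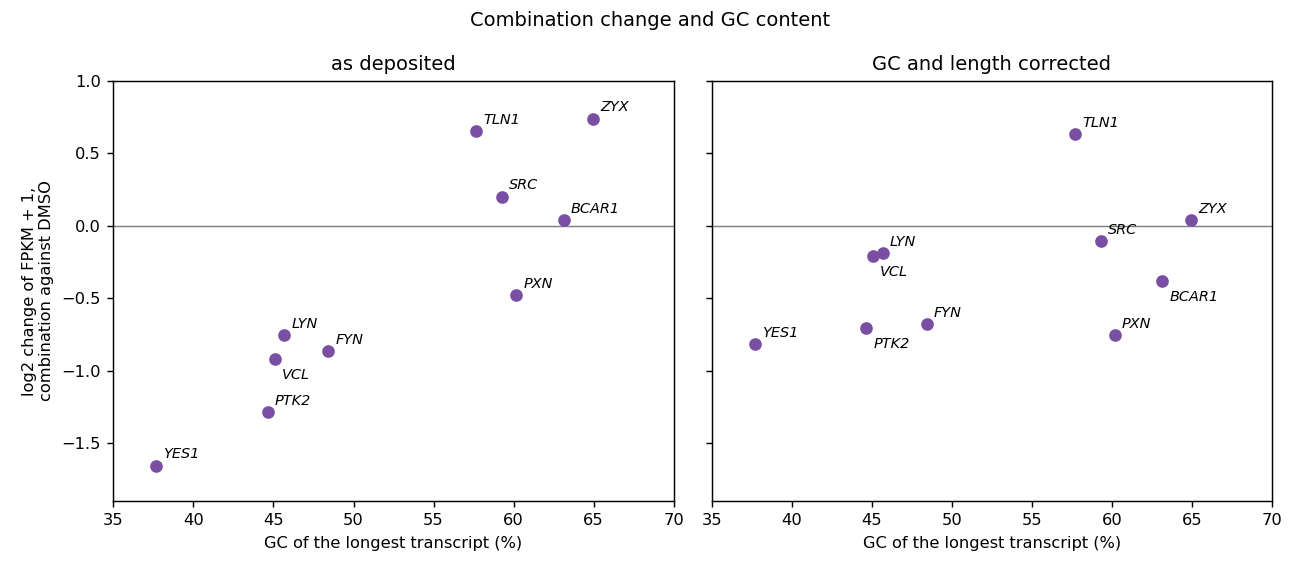
log2 change of FPKM + 1 in the combination against DMSO (vertical axis) against GC content of the longest transcript in percent (horizontal axis), 1 point per gene, as deposited on the left and corrected for GC and length on the right. The rising order on the left, from YES1 at 37.7% GC to ZYX at 64.9%, is looser on the right, where TLN1 stays high and PXN is among the lowest.

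Against each single drug, the deposited combination values of all 10 genes were without overlap. How many of all tested genes separate in this way was not counted, so the separation is not read as particular to the 10. Against ceritinib alone 4 genes were higher and 6 lower as deposited, with a background of 35.9% higher and 51.3% lower. SRC was higher by 0.52 (adjusted p = 3.20e-07), TLN1 by 0.76 (adjusted p = 8.61e-11), ZYX by 0.45 (adjusted p = 4.21e-06) and BCAR1 by 0.24 (adjusted p = 0.00760), the last at 0.16 without combination replicate 1. YES1 changed by -1.45, PTK2 by -1.18, VCL by -0.92, LYN by -0.63, FYN by -0.32 and PXN by -0.26. Corrected for GC and length, SRC (0.22) and TLN1 (0.75) were higher and 7 genes were lower, with a background of 39.4% higher and 39.7% lower, PTK2 at -0.60, YES1 at -0.63 and PXN at -0.53 the most. ZYX then stood at -0.20 and BCAR1 at -0.16, their signs reversed, and LYN at -0.05 did not pass (adjusted p = 0.283). With median-of-ratios scaling PXN turned to 0.04 and FYN did not pass (adjusted p = 0.107), and with quantile normalization FYN did not pass either (adjusted p = 0.729).

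Against crenolanib alone 4 genes were again higher and 6 lower as deposited, with a background of 37.4% higher and 50.1% lower. SRC was higher by 0.49 (adjusted p = 6.43e-07), TLN1 by 0.56 (adjusted p = 1.51e-09), ZYX by 0.49 (adjusted p = 1.87e-06) and BCAR1 by 0.23 (adjusted p = 0.00981), the last not on the TPM scale (adjusted p = 0.200) and at 0.15 without combination replicate 1. YES1 changed by -1.37, PTK2 by -1.10, VCL by -1.06, LYN by -0.75, FYN by -0.59 and PXN by -0.38. After correction SRC (0.20) and TLN1 (0.57) were higher and the other 8 lower, with a background of 39.2% higher and 39.7% lower, ZYX at -0.20 and BCAR1 at -0.17 with reversed signs. Compared with either drug alone, SRC and TLN1 were thus higher in the combination, and PTK2, YES1, VCL, FYN and PXN lower, both as deposited and corrected.

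The interaction asks whether the log2 change with both drugs differs from the ceritinib and crenolanib changes added up. It was called for 9 of the 10 genes, 4 higher and 5 lower, which is near the background of 81.5% called, 33.8% higher and 47.7% lower. PTK2 (-0.996, SE 0.0391, adjusted p = 2.74e-10) and YES1 (-1.16, SE 0.0531, adjusted p = 9.28e-10) lay below the sum, as did VCL (-1.05, SE 0.0474, adjusted p = 8.34e-10). After correction they were -0.41 for PTK2, -0.34 for YES1 and -0.31 for VCL, all still called, where 4138 of all 11761 genes were higher and 4109 lower. SRC lay above the sum at 0.81 (SE 0.0673, adjusted p = 2.09e-07), and at 0.52 corrected (adjusted p = 3.52e-06). Each drug alone had lowered it. TLN1 lay above it at 0.67 (SE 0.0420, adjusted p = 1.54e-08), and at 0.68 corrected.

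FYN was the gene without a called interaction as deposited, at -0.05 with an interval of -0.19 to 0.09 (adjusted p = 0.494). Its single-drug changes, -0.54 and -0.27, sum to nearly its combination change of -0.87. After correction the FYN interaction was 0.15 (adjusted p = 0.0430), so on that scale the fall was smaller than the sum. It was likewise above 0 with median-of-ratios scaling (0.16, adjusted p = 0.0363) and with quantile normalization (0.28, adjusted p = 0.00172). LYN was called at -0.62 as deposited and not after correction (-0.03, adjusted p = 0.668), and BCAR1 at 0.43 as deposited and not after correction (0.05, adjusted p = 0.472). PXN was at -0.16 (adjusted p = 0.0205), not passing without ceritinib replicate 1, crenolanib replicate 2 or combination replicate 3 (adjusted p = 0.0501 to 0.0515) or with no filter (0.0530), at 0.11 with median-of-ratios scaling and at -0.40 corrected. ZYX was at 0.20 (adjusted p = 0.0254), not passing without ceritinib replicate 2 or 3, crenolanib replicate 1 or 3, combination replicate 1, or DMSO replicate 1 or 2 (adjusted p = 0.0507 to 0.0658), on the TPM scale (0.112), with quantile normalization (0.969) or with no filter (0.0761), and at -0.44 corrected (adjusted p = 1.32e-06).

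The balance among the SRC family kinases was also set out as shares of the FPKM of SRC, FYN, YES1 and LYN summed within a library, a measure that does not depend on how libraries are scaled to each other. The 4 kinases summed to 33.3 ± 0.522 FPKM with ceritinib, 33.8 ± 0.754 with crenolanib, 20.6 ± 0.356 with the combination and 40.9 ± 0.773 with DMSO (SD, n = 3 each). YES1 made up 58.2% ± 0.718 of the sum with ceritinib, 53.9% ± 1.78 with crenolanib, 31.3% ± 1.27 with the combination and 54.9% ± 0.651 with DMSO. SRC made up 17.7% ± 0.149 with ceritinib, 18.0% ± 1.70 with crenolanib, 43.2% ± 1.33 with the combination and 18.6% ± 0.2804 with DMSO. YES1 therefore held the largest share in every ceritinib, crenolanib and DMSO library, and SRC in every combination library.

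FYN made up 12.6% ± 0.437 with ceritinib, 15.5% ± 0.723 with crenolanib, 15.2% ± 0.641 with the combination and 16.02% ± 0.319 with DMSO. LYN stayed between 9.95% and 12.9% in all libraries as deposited. After the GC and length correction its mean share was 13.0% with the combination and 10.2% with DMSO. The shares within a library are tied, since together they make up the whole sum, so they are not separate results. With ceritinib the SRC, FYN, YES1 and LYN shares each had no overlap with DMSO, the largest gap being -3.45 percentage points for FYN. The exact two-sided permutation p was 0.1 there, as it was for LYN with crenolanib and for SRC and YES1 with the combination, and 0.1 is the smallest p that 3 against 3 libraries can give. For the rest it ranged from 0.2 to 0.8. The combination gap was 24.6 points for SRC and -23.7 points for YES1, and 8.56 and -9.01 points after the GC and length correction, when YES1 again had the larger mean share, 42.3% against 30.2% for SRC.

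The ratio of SRC to YES1 within a library, looked at after these values were seen, was 0.304 ± 0.00575 with ceritinib, 0.335 ± 0.0430 with crenolanib, 1.38 ± 0.0976 with the combination and 0.339 ± 0.00621 with DMSO (SD, n = 3 each). The ratio of TLN1 to VCL, likewise chosen after the values were seen, was 0.833 ± 0.0278 with ceritinib, 0.871 ± 0.0429 with crenolanib, 2.75 ± 0.101 with the combination and 0.898 ± 0.0157 with DMSO. In both ratios every combination library was above every other library, without the GC and length correction.

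**Figure D4:**
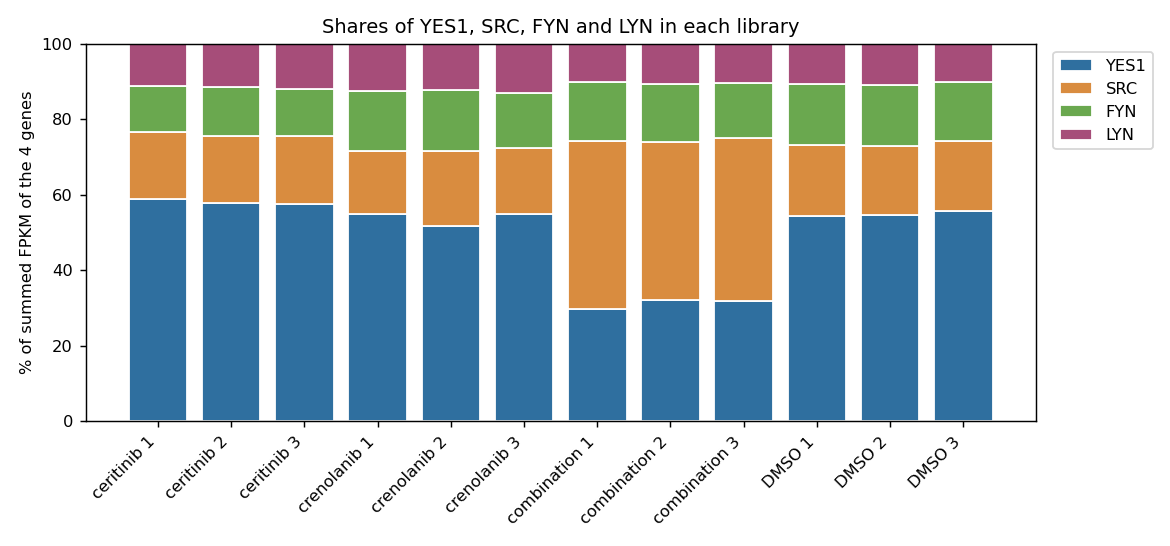
Shares of YES1, SRC, FYN and LYN in their summed FPKM (vertical axis, percent) in each of the 12 libraries, as deposited. YES1 is the largest segment in the ceritinib, crenolanib and DMSO libraries and SRC in the combination libraries, where its mean share is 43.2%.

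Other kinases of both families were at low levels in these cells. PTK2B, the relative of focal adhesion kinase, and FGR, LCK, BLK and FRK were below 1 FPKM in every library, and none of these 5 passed the filter. A further 68 genes around the FAK and SRC pathway were taken as a list, of which 55 were tested: 7 SRC family regulators, 18 adaptors and exchange factors, 19 linkers between integrins and actin, and 11 zyxin relatives, actin regulators and LIM proteins. With ceritinib 5 rose and 18 fell, with a median change of -0.03, where 20.3% of all tested genes rose and 16.3% fell. With crenolanib 13 rose and 10 fell, with a median of 0.03, where 13% of all tested genes went each way. Those 23 calls became 14 without DMSO replicate 3. With the combination 23 rose and 29 fell as deposited, with a median of -0.12, and 20 rose and 26 fell after correction. Those counts are close to the shares over all tested genes, 36.8% higher and 50.9% lower as deposited and 39.5% higher and 40.8% lower corrected. Set against crenolanib, ceritinib left 19 of the 55 lower and 3 higher, with a median of -0.06, where 15.4% of all tested genes were lower and 19.4% higher.

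Of the 19 integrin linkers, 7 fell and 1 rose with ceritinib, where 16.3% of all tested genes fell and 20.3% rose. With crenolanib 3 fell and 5 rose as deposited, where 13% of all tested genes went each way. After correction 3 fell and 7 rose, against 13.7% of all genes lower and 15.6% higher. Set directly against crenolanib, ceritinib left 7 linkers lower and 0 higher as deposited in the limma test, where 15.4% of all tested genes were lower and 19.4% higher. After correction 8 linkers were lower and 1 higher, where 2316 of all 11761 genes were lower and 2144 higher. TNS1, tensin 1, which ties integrin tails to actin, had 1.14, 1.22 and 1.15 FPKM with ceritinib, against 1.88, 1.78 and 1.82 with DMSO, a change of -0.38 (adjusted p = 3.93e-05). With crenolanib TNS1 changed by -0.41 (adjusted p = 5.31e-05). FERMT1, kindlin 1, a coactivator of integrins, changed by -0.36 with crenolanib (adjusted p = 0.000455).

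Among zyxin partners, VASP, which promotes actin filament growth and binds zyxin, had 20.7, 20.4 and 20.6 FPKM with ceritinib, against 26.9, 26.1 and 27.1 with DMSO. It changed by -0.36 with ceritinib (adjusted p = 2.83e-05) and by -0.36 with crenolanib (adjusted p = 6.39e-05), while ZYX itself rose with both. PAK1, a kinase that acts downstream of Rac and Cdc42 on the cytoskeleton, changed by -0.33 with ceritinib (adjusted p = 4.96e-05).

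MATK, a relative of CSK that can phosphorylate the inhibitory tail of SRC family kinases, moved in opposite directions with the single drugs. It had 3.36, 2.65 and 3.48 FPKM with ceritinib, 1.40, 1.80 and 1.60 with crenolanib, and 2.32, 2.23 and 2.40 with DMSO. With the combination MATK had 5.55, 5.66 and 6.14 FPKM as deposited. Its change was 0.32 with ceritinib (adjusted p = 0.00694) and -0.35 with crenolanib (adjusted p = 0.00606), and ceritinib exceeded crenolanib by 0.68 (SE 0.0777, adjusted p = 4.56e-05). Among the 7 tested regulators the highest change with the combination against DMSO was 1.03 as deposited and 0.26 after correction. Lower with ceritinib than with crenolanib were TGFB1I1, the paxillin relative Hic-5, at -0.47 (adjusted p = 0.000840), PDLIM7 at -0.43 (adjusted p = 9.45e-05) and TNS3 at -0.31 (adjusted p = 1.39e-05).

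In the combination the 4 largest changes among these genes were falls as deposited. PTPN11, the phosphatase SHP2, had 8.08, 8.50 and 9.01 FPKM with the combination, against 34.4, 33.5 and 33.6 with DMSO, a change of -1.87 (adjusted p = 7.77e-13) that was -1.05 after correction. ASAP1, an Arf GTPase regulator that binds focal adhesion kinase and SRC, had 5.70, 6.09 and 5.57 FPKM with the combination, against 22.8, 21.9 and 22.3 with DMSO, a change of -1.78 (adjusted p = 6.91e-13), or -1.08 corrected. PTPN12, a phosphatase that acts on p130Cas, changed by -1.62, or -0.97 corrected, and PDLIM5 by -1.57, or -0.67 corrected. CBL, a ubiquitin ligase of tyrosine kinases, changed by -1.40 against ceritinib (-0.65 corrected), and FERMT2, kindlin 2, by -1.41 against crenolanib (-0.47 corrected). After correction the largest changes were instead rises, those of CSRP1, a LIM protein that binds actin, at 1.39 (0.97 as deposited) and of PARVB, beta-parvin, a partner of integrin-linked kinase, at 1.24 (1.18 as deposited), both named after their values were seen. ASAP1 and PTPN11 also had the lowest interactions of the list's named genes, -1.77 and -1.53 as deposited. After correction these were -1.04 for ASAP1 and -0.70 for PTPN11.

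**Figure D5:**
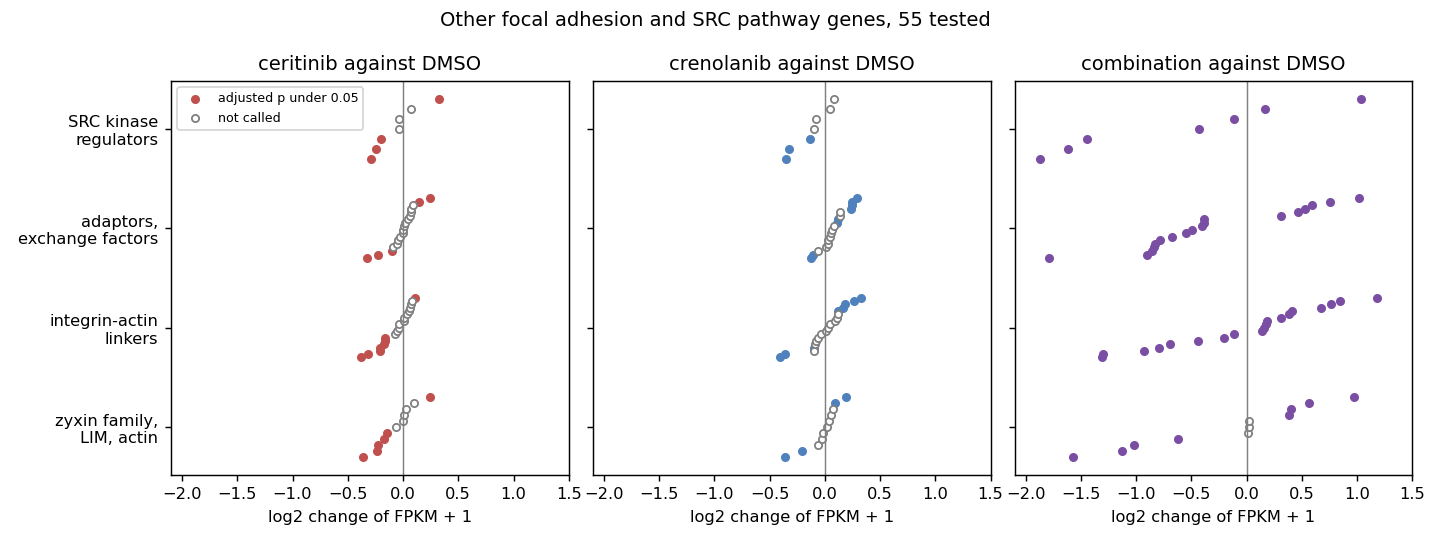
log2 change of FPKM + 1 against DMSO, as deposited (horizontal axis), of the 55 tested pathway genes in 4 groups by role, for ceritinib, crenolanib and the combination. Filled points have an adjusted p below 0.05 and open points do not, and the combination panel spans a wider range, with PTPN11 lowest at -1.87.

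The genes whose log2 values were most like those of PTK2 over the 12 libraries, among 10552 protein-coding genes, were ZMYM2 (Pearson r 0.9997), GLI3 (0.9989) and CFAP97 (0.9985). After the GC and length correction r was 0.551 for ZMYM2, 0.995 for GLI3 and 0.995 for CFAP97. GLI3, a transcription factor of Hedgehog signalling, averaged 4.65 FPKM with ceritinib, 4.42 with crenolanib, 1.49 with the combination and 5.004 with DMSO. For SRC they were SLC1A5 (0.978), GYPC (0.977) and ATF4 (0.973), and after correction r was 0.725 for SLC1A5, 0.911 for GYPC and 0.863 for ATF4. ATF4, a transcription factor of the integrated stress response, averaged 149.8 FPKM with ceritinib, 153.9 with crenolanib, 228 with the combination and 199 with DMSO. For FYN they were SH3PXD2B (0.991), KDM7A (0.986) and TRIB1 (0.982). SH3PXD2B, the SRC substrate TKS4 of invadopodia, averaged 7.41 FPKM with ceritinib, 8.81 with crenolanib, 6.36 with the combination and 10.2 with DMSO, and after correction r with FYN was 0.978 for SH3PXD2B, 0.365 for KDM7A and 0.953 for TRIB1. The 12 libraries fall into 4 groups, so these values mostly describe group means.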

How the data were processed

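RNA was sequenced from 143B cells in 4 groups of 3 libraries, 12 in all, grouped by the treatment label. Libraries were strand-specific, per the labels' protocols, which also speak of a thymic sample where the other labels name 143B cells. Per the submitters' processing notes, FastQC 0.11.2, STAR and StringTie were used with hg38, and no source used here gives their other settings. The authors deposited 1 FPKM value per gene symbol in each library. No header names the unit, which was read from the values. Depth was estimated from the smallest steps between values and entered no test. In each library 1 row without a gene name, at most 0.00426% of the summed FPKM, was left out.

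The 11944 genes that reached 1 FPKM in 3 or more libraries were tested. In limma 3.58.1 (R 4.3.3), log2(FPKM + 1) was modelled by group means, with the variance trend on and 8 residual degrees of freedom. A pseudocount of 1 understates the change of low genes. P-values were adjusted by Benjamini-Hochberg over the whole table in each of 7 comparisons, with a threshold of 0.05. The p-values measure the spread between libraries labelled as biological replicates of 1 line. Shares of the SRC family were compared with exact two-sided permutation tests. The correction for GC and length removed natural splines (5 degrees of freedom) of GC percent and log2 length from each library's deviations, for 11761 genes (98.5%), with GENCODE 29, in which 54611 symbols occur. Promoters are RefSeq's.

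On simulated data, 50 of the 11944 genes were changed at each size. The fit recovered 60% of those changed by 0.25 on the log2 scale in the ceritinib comparison with DMSO. It recovered 62% in that of crenolanib and 52% in that of the combination. Far fewer genes changed there than were called in the data, so these rates are not those of the tests here. Alternatives were another pseudocount, other filters, 3 other scalings, the correction, a replicate block, other sets of libraries, robust variances and leaving out each library. The 10 genes, the lists, the correction and the tests were chosen with earlier results of these data known. Named pathway genes are those with the 4 largest changes per comparison among called genes without overlap between groups. A listed gene is not reported here.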

Additional observations from a re-analysis of the deposited data

Results flagged for a closer look

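By the limma interaction test, the change with both drugs differed from the ceritinib and crenolanib changes added up for 9 of the 10 genes. This is near the background of 81.5% of all tested genes, so the count does not set the 10 genes apart. As deposited, the interaction on the log2 scale was -1.16 for YES1, -1.05 for VCL, -0.996 for PTK2, -0.62 for LYN and -0.16 for PXN, so these lay below the sum. It was 0.81 for SRC, 0.67 for TLN1, 0.43 for BCAR1 and 0.20 for ZYX, which lay above it. After the GC and length correction the LYN and BCAR1 interactions did not pass, that of ZYX was -0.44, and the others kept their direction and passed. On that scale 4138 of all 11761 genes were called higher and 4109 lower. The part of GC content and transcript length in these values is given only as the difference between deposited and corrected values, and a trend produced by the drugs cannot be told apart from a trend of the libraries.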

How the results depend on the processing

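Counts of called genes, among the 10 and in the pathway list, stayed within 1.5 times the count reported under every alternative that kept all libraries of the groups compared. The count for ceritinib against crenolanib ranged from 3 to 5 when a library was left out, and the list's count for crenolanib against DMSO from 14 to 23. Among the alternative values of single genes that kept those libraries, 708 kept direction and call, 39 lost the call, 17 gained it and 26 reversed.

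GC and length correction reversed the combination changes against DMSO of SRC (-0.10) and BCAR1 (-0.38), against ceritinib of BCAR1 (-0.16) and ZYX (-0.20), against crenolanib of BCAR1 (-0.17) and ZYX (-0.20), and the interactions of FYN (0.15) and ZYX (-0.44), with the same values under the replicate block with that correction. It moved the LYN share difference between the combination and DMSO to 2.85 points, against -0.143 as deposited. The TPM scale reversed BCAR1 in the combination against DMSO (-0.11) and ZYX in ceritinib against crenolanib (-0.0150). Median-of-ratios scaling reversed LYN with crenolanib (0.0268), PXN in the combination against ceritinib (0.0438), ZYX in ceritinib against crenolanib (-0.0304) and the interactions of FYN (0.16) and PXN (0.11). Quantile normalization reversed LYN with crenolanib (0.0054), BCAR1 in the combination against DMSO (-0.0311) and the FYN interaction (0.28). The cause was not tested.

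Leaving out 1 library reversed only differences near 0. VCL with ceritinib ranged from -0.0226 to 0.0237, LYN with crenolanib from -0.0463 to 0.0254 and BCAR1 in the combination against DMSO from -0.0442 to 0.0890. In ceritinib against crenolanib the ranges were -0.0684 to 0.0240 for SRC, -0.0541 to 0.0480 for BCAR1 and -0.00758 to 0.0939 for ZYX. Against DMSO, the SRC share with crenolanib ranged from -1.56 to 0.0816 points, the YES1 share with crenolanib from -1.54 to 0.0132, and the LYN share in the combination from -0.394 to 0.0506.

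Replicate numbers did not pair the libraries: deviations from the group means, compared between same-numbered libraries, correlated at a median of -0.00115, and 1 of 18 such pairs exceeded 0.1. With the replicate block, the calls among the 10 genes were the same as without it, apart from those named next. This covers each treatment against DMSO and ceritinib against crenolanib. LYN (adjusted p = 0.0719) and BCAR1 (adjusted p = 0.0590) were not called with ceritinib, nor PTK2 in ceritinib against crenolanib (adjusted p = 0.0695). With 3 libraries a group, changes near 0.1 were rarely recovered in simulation (2% to 6%), where far fewer genes changed than were called in these data. That rate therefore does not give the recovery of such changes here.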
